A study of Homo sapiens with 2 samples.

Results

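The Schlafen family was examined in 2 bulk RNA-seq libraries. Its 6 members were the rows of the deposited table with the symbols SLFN5, SLFN11, SLFN12, SLFN12L, SLFN13 and SLFN14, out of 18930 genes in the table, of which 18267 had counts. SLFN11 was selected on its log2 fold change between these same 2 libraries, where it ranked 4 of 16210 genes in the upward direction, and the other members were taken for their family name. Differences between the libraries are therefore given as descriptions, with no test. One library is labelled DR and the other WT, each with 1 sample, so there was no replicate check. The labels give skin as the tissue, melanoma as the cell type and A375, an established human melanoma line, for each of them. In the study, DR stands for cells made resistant by rising doses of dacarbazine (DTIC), a drug that alkylates DNA, and WT for the wild-type control. The label text for drug exposure, which spells the agent DITC, gives 105 days for the WT-labelled library as well as for the DR-labelled library. The column names of the table were tied to samples by the sample descriptions, which differ in a single punctuation mark and name no condition, and each direction below depends on them.

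Schlafen proteins share an N-terminal core domain, which cuts RNA in several members, and the longer members also carry a C-terminal helicase-like part. Several of the genes are induced by interferon. SLFN11 binds stalled replication forks through the single-strand binding protein RPA, blocks replication for good during replication stress and cleaves transfer RNAs, and cells without it survive many DNA-damaging drugs. SLFN13 cleaves transfer and ribosomal RNA, SLFN12 is an RNase that kills cells when small molecules join it to the phosphodiesterase PDE3A, SLFN5 is a nuclear protein known as a transcriptional repressor, and SLFN14 is a ribosome-associated endoribonuclease of blood platelets and red cells. The role of SLFN12L is less well known.

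The 2 libraries had 54878355 and 35294670 estimated reads in the order DR, WT, the order used throughout. Levels are given as CPM, the standard unit of reads relative to the scaled library size, and 3 reads were worth 0.0540 and 0.0861 CPM. Most markers of the labelled cell type were low. Of 15 melanocytic genes 13 had counts, with medians of 0.990 and 1.35 CPM and sums of 55.3 and 54.0 CPM. SOX10 had 3 and 0 reads. MITF went the other way, with 1922 and 1211 reads, or 34.6 and 34.7 CPM. In each library MITF alone of these genes lay above the median CPM of all genes with at least 10 reads. Of 14 plasma cell genes 14 had counts, with medians of 386 and 254 CPM, sums of 13119 and 11118 CPM, and 4 genes at least 2-fold higher in the DR-labelled library on the scale used here, against 7.47% of all 16210 genes with at least 10 reads. The 10 general blood cell genes had sums of 9632 and 6072 CPM, with 2 genes past that fold, and 8 fibroblast genes, of which 6 had counts, had sums of 14.3 and 3.27 CPM, with 2 of the 3 that had at least 10 reads past the fold. The part of these markers in the Schlafen differences was not tested. By median and by sum, the plasma cell genes lay far above the melanocytic genes in each library, although the labels name a melanoma line. Which cells gave the RNA was not tested. In bulk RNA, fewer cells of a type and less RNA per cell cannot be told apart.

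The bases upstream of the gene start are shown for the members with an entry among the RefSeq promoters (GRCh38.p14), SLFN11, SLFN12 and SLFN12L. Each is the 250 bases before the start, on the minus strand of chromosome 17. Capitals mark matches on either strand to the ETS core CCGGAA, the interferon response core GAAANNGAA, the STAT site TTCNNNGAA, the box CCAAT and the TATA box TATANAA.
SLFN11, chr17:35373622-35373871: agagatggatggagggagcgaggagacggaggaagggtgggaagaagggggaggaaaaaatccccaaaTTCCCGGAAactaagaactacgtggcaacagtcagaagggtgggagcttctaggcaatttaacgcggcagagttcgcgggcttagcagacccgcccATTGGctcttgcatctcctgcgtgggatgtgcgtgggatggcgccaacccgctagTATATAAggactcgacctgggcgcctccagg
SLFN12, chr17:35433175-35433424: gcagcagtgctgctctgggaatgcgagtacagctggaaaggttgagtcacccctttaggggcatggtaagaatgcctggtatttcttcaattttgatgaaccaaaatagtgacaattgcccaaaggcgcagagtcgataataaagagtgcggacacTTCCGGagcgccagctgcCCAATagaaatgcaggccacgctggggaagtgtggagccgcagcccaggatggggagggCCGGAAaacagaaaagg
SLFN12L, chr17:35537679-35537928: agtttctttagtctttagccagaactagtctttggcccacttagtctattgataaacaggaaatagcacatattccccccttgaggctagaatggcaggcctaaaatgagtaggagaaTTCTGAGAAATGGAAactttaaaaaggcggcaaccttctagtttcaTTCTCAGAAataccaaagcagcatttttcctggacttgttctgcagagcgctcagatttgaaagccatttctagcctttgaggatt

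SLFN11 held 1 ETS core inside a STAT site match, 1 CCAAT box on the reverse strand and 1 TATA box that began 31 bases before the start. SLFN12 held 2 ETS cores, 1 on each strand, and 1 CCAAT box. SLFN12L held 1 interferon response core that overlapped the first of 2 STAT site matches, and neither an ETS core nor a CCAAT box. Among 27305 RefSeq promoters of this length, 14.8% held the ETS core, 7.06% the interferon response core, 6.78% the STAT site, 33.0% the CCAAT box and 8.78% the TATA box. The dinucleotide CG, the site of DNA methylation, occurred 15 times in SLFN11, 9 times in SLFN12 and 2 times in SLFN12L, against a median of 11. These matches describe letters only, and neither binding nor methylation was measured. The motifs were chosen after the letters were seen, so nothing is read from how these members differ in them.

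SLFN11 counted 2061 reads with the DR label against 5 with the WT label. Its levels were 37.1 CPM (95% exact Poisson interval 35.5 to 38.7) and 0.143 CPM (0.0466 to 0.335). SLFN11 was thus well covered in the DR-labelled library and near the limit of counting in the WT-labelled library. The ratio of the levels was 259, with a Clopper-Pearson interval of 111 to 797, and the log2 fold change on the scale of log2 (CPM + 0.5) was 5.87 (5.49 to 6.11). All intervals here cover read counting only, and reads are not independent molecules.

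SLFN13, the tRNA and rRNA nuclease, was the most abundant member in each library. It had 5483 and 497 reads, or 98.7 CPM (96.1 to 101.3) and 14.3 CPM (13.03 to 15.6). The log2 fold change was 2.75 (2.62 to 2.88), a ratio of 6.92. Unlike SLFN11, SLFN13 stayed far above the floor of 3 reads in the WT-labelled library.

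SLFN5, the transcriptional repressor, had 1964 and 206 reads. Its levels were 35.3 CPM (33.8 to 36.9) and 5.91 CPM (5.13 to 6.77), with a log2 fold change of 2.48 (2.29 to 2.68) and a ratio of 5.98. In the DR-labelled library its CPM lay close to that of SLFN11, while in the WT-labelled library it had 206 reads against 5. SLFN12, the partner of PDE3A, had 403 and 10 reads, at 7.25 CPM (6.56 to 7.997) and 0.287 CPM (0.138 to 0.528). Its log2 fold change was 3.30 (2.90 to 3.62), with a ratio of 25.3 (13.6 to 53.1). The place of SLFN12 in the order of fold changes rests on its 10 reads in the WT-labelled library. With 5 CPM added in place of 0.5, SLFN12 was at 1.21, below SLFN13 at 2.43 and SLFN5 at 1.89.

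SLFN12L did not pass a log2 fold change of 1. It had 155 and 69 reads, at 2.79 CPM (2.37 to 3.27) and 1.98 CPM (1.54 to 2.50), and a log2 fold change of 0.41 (0.06 to 0.75). SLFN14, the ribosome-associated nuclease, had 2 and 0 reads, which is at or under 3 reads in each library, and no fold is given. The 0 reads of the WT-labelled library allow up to 0.0861 CPM, the level of 3 reads. SLFNL1, a Schlafen-like gene outside the family list, on another chromosome, had 268 and 196 reads, 4.82 and 5.62 CPM, and a log2 fold change of -0.20 (-0.45 to 0.05).

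Of the 6 members, 5 had at least 10 reads over both libraries and SLFN14 did not. With a threshold of 1 on the log2 fold change in either direction, 4 members were higher with the DR label and 0 were lower, while 7.47% of the 16210 genes with at least 10 reads were higher by this rule and 4.16% lower. SLFN11 was picked from this comparison, so nothing is read from that count. The family sum was 181 CPM in the DR-labelled library and 22.6 CPM in the WT-labelled library. By fold change SLFN12 ranked 75, SLFN13 140, SLFN5 192 and SLFN12L 3537 of the genes tested. A pseudocount of 5 CPM lowered the log2 fold change of SLFN11 to 3.03 and that of SLFN12 to 1.21, and 0.1 CPM raised them to 7.26 and 4.25, since both are near 0 in the WT-labelled library.

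**Figure D1:**
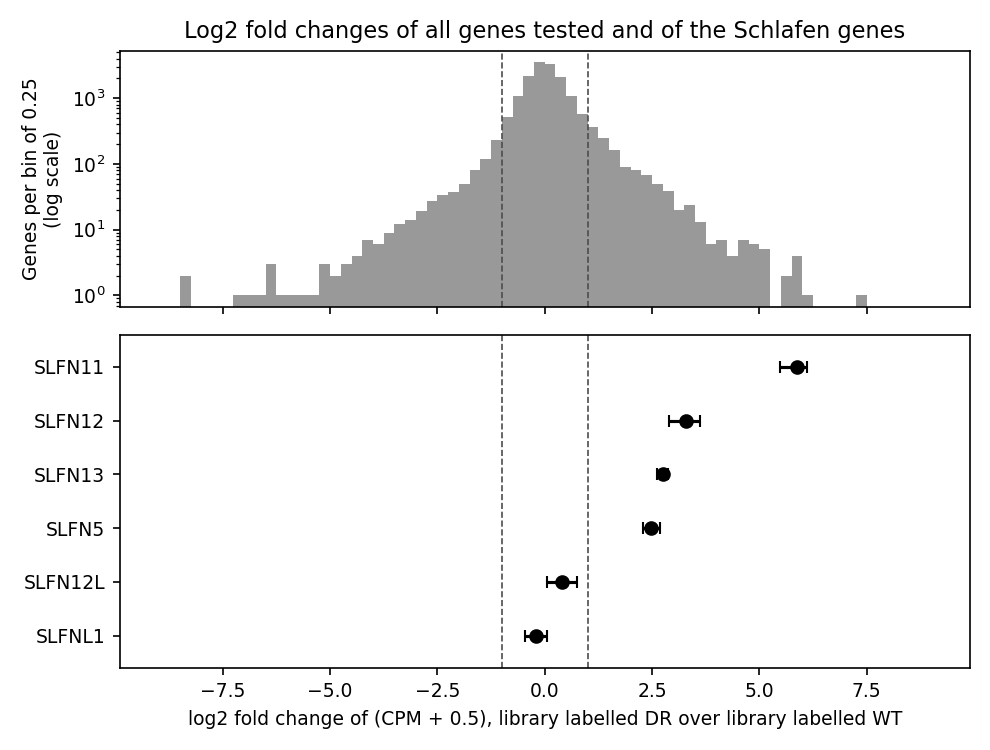
The upper panel shows the number of genes (log scale) in each bin of 0.25 of log2 fold change over all 16210 genes tested, and the lower panel the log2 fold change of (CPM + 0.5), DR-labelled over WT-labelled library, of each Schlafen gene with at least 10 reads, with 95% intervals from read counting (bars) and dashed lines at -1 and 1. SLFN11 lies at 5.87, SLFN12, SLFN13 and SLFN5 between 2.48 and 3.30, and SLFN12L and SLFNL1 between the dashed lines.

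To compare levels between genes, CPM was divided by the gene length in the table, which gives RPKM. In the DR-labelled library the order was SLFN13 at 19.3 RPKM (18.8 to 19.8), SLFN11 at 7.18 (6.87 to 7.49), SLFN5 at 5.51 (5.27 to 5.76), SLFN12 at 1.63 (1.47 to 1.80), SLFN12L at 0.477 (0.405 to 0.558) and SLFN14 at 0.0125 (0.00151 to 0.0451). No neighbours in this order had overlapping intervals. In the WT-labelled library the order was SLFN13 at 2.79 RPKM (2.55 to 3.05), SLFN5 at 0.921 (0.800 to 1.06), SLFN12L at 0.338 (0.263 to 0.428), SLFN12 at 0.0645 (0.0309 to 0.119), SLFN11 at 0.0278 (0.00901 to 0.0648) and SLFN14 at 0. There SLFN12 and SLFN11 overlapped, as did SLFN11 and SLFN14, for which 3 reads would be 0.0299 RPKM. SLFN11 therefore ranked 2 in the DR-labelled library and 5 in the WT-labelled library. It was picked for its fold change between these libraries, so nothing is read from the change in rank.

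Measured against all genes tested, whose median level was 6.46 and 6.40 RPKM, SLFN11 stood at percentile 52.0 in the DR-labelled library and 2.74 in the WT-labelled library. SLFN13 stood at percentiles 74.3 and 38.2, SLFN5 at 47.0 and 26.8, SLFN12 at 31.0 and 5.58, and SLFN12L at 18.8 and 17.6. Only SLFN13 and SLFN11 lay above the median of all genes tested, and only in the DR-labelled library.

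**Figure D2:**
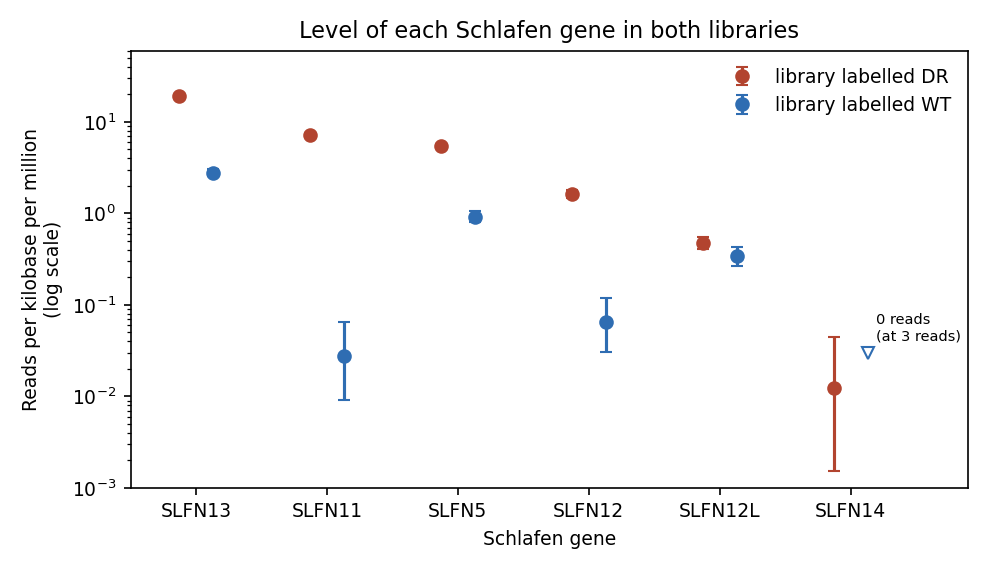
Each point is the level of 1 Schlafen gene in 1 library, in RPKM (reads per kilobase and library size) on a log scale, with a 95% exact Poisson interval (bars), in red for the DR-labelled library and in blue for the WT-labelled library, and the open triangle marks the level of 3 reads for SLFN14, which had 0. SLFN11 lies at 7.18 and 0.0278, while SLFN12L lies at 0.477 and 0.338.

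The makeup of the family within each library does not depend on scaling between libraries. SLFN13 made up 56.6% of the summed family level per length in the DR-labelled library and 67.4% in the WT-labelled library. SLFN11 made up 21.0% and 0.670%, SLFN5 16.1% and 22.2%, SLFN12 4.78% and 1.56%, and SLFN12L 1.40% and 8.17%. Counted as reads, SLFN11 took 20.5% (Clopper-Pearson interval 19.7% to 21.3%) of 10068 family reads and 0.635% (0.207% to 1.48%) of 787 family reads. SLFN11 and SLFN12 thus held larger shares in the DR-labelled library, and SLFN13, SLFN5 and SLFN12L held larger shares in the WT-labelled library. The shares of a library add up to the whole, so the larger share of SLFN11 by itself lowers the others. SLFN11 was picked for its large fold change, so nothing is read from these directions.

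Ratios between pairs of members do not depend on the other members. Per length, SLFN11 was at 0.372 of the level of SLFN13 (0.353 to 0.391) in the DR-labelled library and at 0.00995 (0.00322 to 0.0234) in the WT-labelled library. SLFN12 was at 3.42 times the level of SLFN12L (2.83 to 4.14) and at 0.190 times (0.0875 to 0.372), so that their order turned over. SLFN13 was at 3.51 times the level of SLFN5 (3.33 to 3.69) and at 3.03 times (2.57 to 3.58), with overlapping intervals. SLFN5 and SLFN13 thus kept nearly the same ratio. SLFN11 departed from SLFN13, but it was picked for its large fold change, so nothing is read from that.

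**Figure D3:**
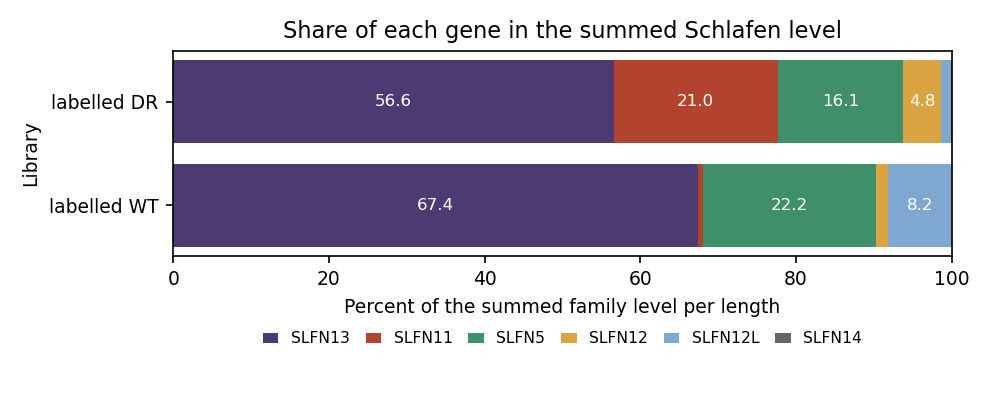
Stacked bars give the share of each Schlafen gene, in percent, in the summed family level per length of each library. SLFN13 takes the largest part of both bars, and the red part of SLFN11 is 21.0% in the DR-labelled library and 0.670% in the WT-labelled library.

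Reads of close relatives can be assigned to the wrong gene. Fractional estimated counts were found in 5 of the 6 members, with SLFN14 as the exception. They were also found in 9108 of the 18267 genes with counts, so they are not particular to this family. In GENCODE 29 transcripts, 617 of 6370 distinct stretches of 50 bases in SLFN11 (9.69%) also occurred in SLFN13, where they made up 6.50%. SLFN12 shared 49 stretches (1.32%) with SLFN12L, and SLFN5 and SLFN14 shared 0 within the family. The 5.25 estimated reads of SLFN11 in the WT-labelled library stood beside 497.16 of SLFN13, and how the authors split shared reads and how long the reads were is not given in the sources used here. Taken as 1 unit, SLFN11 and SLFN13 had a log2 fold change of 3.19, and SLFN12 with SLFN12L 1.93.

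All 6 members lie side by side on chromosome 17, in the order SLFN5, SLFN11, SLFN12, SLFN13, SLFN12L and SLFN14 in the RefSeq gene table of GRCh38.p14. The 4 members past the fold are the first 4 in this order. The non-coding gene LOC105371933, annotated across the start of SLFN11, had 40 and 4 reads and a log2 fold change of 0.99 (0.53 to 1.26). Without strand information its reads and those of SLFN11 cannot be told apart. Next to SLFN5, LOC105371932, whose annotation overlaps the start of SLFN5, had 86 and 49 reads and a log2 fold change of 0.10 (-0.29 to 0.50).

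Of the 16 nearest genes with counts, 8 on each side, 11 had at least 10 reads, 1 was higher and 0 were lower past the fold, against 7.47% and 4.16% of all genes tested, and their median log2 fold change was 0.05, against 0.01. RASL10B, a Ras-like GTPase gene, was the gene past the fold, with 24.7 and 7.63 CPM and a log2 fold change of 1.63 (1.45 to 1.82). The clathrin adaptor gene AP2B1, which lies between SLFN14 and RASL10B, was at -0.33. On the SLFN5 side LIG3, a DNA ligase gene of base excision repair, had 75.9 and 145 CPM and -0.93 (-0.99 to -0.87), and RAD51D, a homologous recombination gene, 21.5 and 30.8 CPM and -0.51. RFFL (0.05), NLE1 (0.05), FNDC8 (-0.19), TAF15 (-0.03) and HEATR9 (0.44) were also under the fold. UNC45B, SLC35G3, GAS2L2, MMP28 and C17orf50 had fewer than 10 reads. LOC105371932, the counted gene next to SLFN5, and AP2B1 thus lay below the fold. Where LOC105371932 and SLFN5 overlap, their reads cannot be told apart without strand information.

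**Figure D4:**
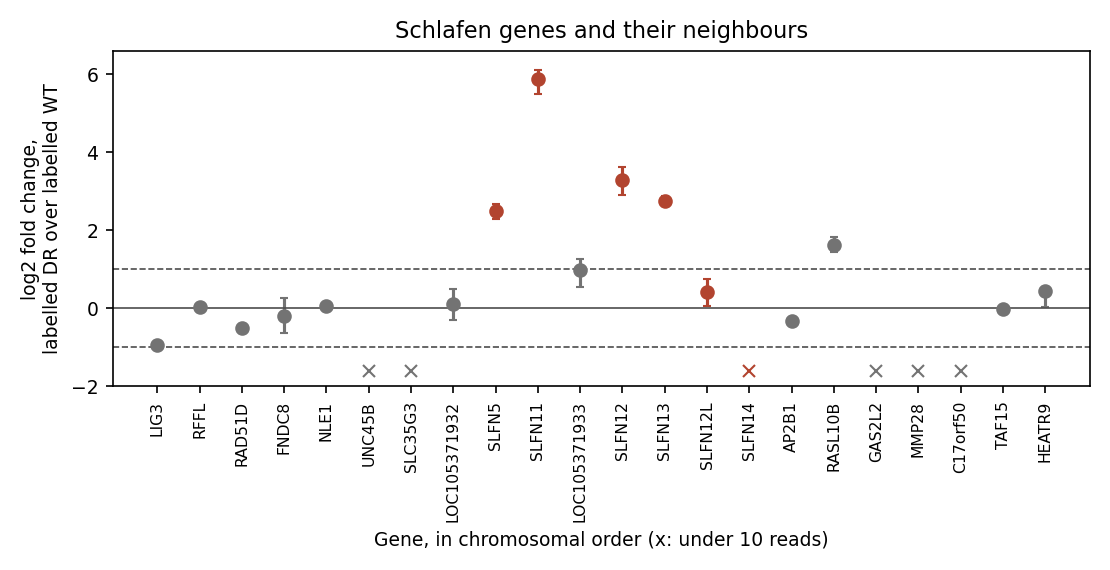
Log2 fold changes (DR-labelled over WT-labelled library, with 95% intervals from read counting as bars) of the Schlafen genes (red) and the genes around them that are reported here (grey) in chromosomal order, with dashed lines at -1 and 1 and crosses, placed at no value, for genes under 10 reads. SLFN5, SLFN11, SLFN12 and SLFN13 lie above 2.4, RASL10B at 1.63, and the other neighbours shown with values between the dashed lines.

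Interferons induce Schlafen genes through JAK kinases and factors of the STAT and IRF families. Of 18 genes of interferon signalling, 1 was higher (5.56%, against 7.47% of all genes tested) and 0 were lower (against 4.16%) past the fold, with a median log2 fold change of 0.33 against 0.01. IRF7, an interferon regulatory factor, was the gene past the fold at 21.0 and 9.81 CPM (1.06, interval 0.90 to 1.23). IRF9, which binds DNA in the interferon-activated complex, had 14.6 and 13.4 CPM (0.12, interval -0.04 to 0.28), and the kinase gene JAK1 170 and 142 CPM (0.27). IRF9 and JAK1 were thus expressed in both libraries and lay below the fold.

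Of 35 interferon-stimulated genes other than Schlafens, 34 had at least 10 reads, and 9 were higher (26.5%, against 7.47% of all genes tested) and 1 lower (against 4.16%) past the fold, with a median of 0.64 against 0.01. OAS3 and OAS2, which sense double-stranded RNA, had 17.8 and 1.89 CPM (2.94) and 41.5 and 8.81 CPM (2.17). GBP1, an interferon-induced GTPase, had 13.5 and 1.66 CPM (2.69), IFITM1, a membrane protein that blocks virus entry, 5.004 and 1.004 CPM (1.87), and IFI44 2.93 and 0.545 CPM (1.72). DDX60, an RNA helicase, was lower at 0.504 and 2.15 CPM (-1.40). The largest of these, OAS3 (interval 2.64 to 3.24), lay close to the log2 fold change of SLFN13, and its interval overlapped that of SLFN12 (2.90 to 3.62). SLFN11 was picked for its large fold change, so these genes are not set against it. Only genes past the fold are named here, and 24 of the 34 did not pass it in either direction.

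SLFN11 transcription is known to be driven by ETS factors such as FLI1 and silenced by the Polycomb methyltransferase EZH2, DNA methylation and histone deacetylation. Of 22 such regulators 21 had counts and at least 10 reads, and 0 passed the fold in either direction, against 7.47% of all genes tested higher and 4.16% lower. Their log2 fold changes ranged from -0.87 to 0.77, with a median of 0.07 against 0.01. FLI1 had 97.8 and 69.1 CPM and a log2 fold change of 0.50 (0.43 to 0.57), and ETS1 41.8 and 39.8 CPM and 0.07 (-0.03 to 0.16). EZH2 had 132 and 144 CPM and -0.13 (-0.18 to -0.08). SLFN11 was picked for its large fold change, so the fold changes of these transcripts are not set against it. Protein and chromatin marks were not measured, and the part of these regulators in SLFN11 was not tested.

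The replication stress response, where SLFN11 acts, was represented by 36 genes, of which 36 had at least 10 reads and 0 passed the fold, against 7.47% of all genes tested higher and 4.16% lower. Their log2 fold changes ranged from -0.97 to 0.40, with a median of -0.18 against 0.01. RPA1, a subunit of the complex that brings SLFN11 to forks, had 201 and 215 CPM (-0.10). CDT1, the licensing factor that SLFN11 helps to degrade, had 110 and 150 CPM (-0.44), the checkpoint kinase genes CHEK1 70.2 and 103 CPM (-0.55) and ATR 74.0 and 87.6 CPM (-0.24). All 4 had lower CPM in the DR-labelled library, by less than 2-fold. Of the 36 genes, 8 had a log2 fold change above 0, among them RPA3 (0.28), of the same complex as RPA1, and MCM7 (0.40).

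Partners and targets of single Schlafens were 6 genes, of which 0 were higher and 1 was lower past the fold, against 7.47% and 4.16% of all genes tested, with a median log2 fold change of -0.28 against 0.01. PDE3B, a phosphodiesterase that like PDE3A can bind SLFN12, was lower at 36.6 and 75.8 CPM (-1.04, interval -1.12 to -0.96). PDE3A had 4.21 and 4.42 CPM (-0.06, interval -0.33 to 0.21). SLFN12 and PDE3A were thus at 7.25 and 4.21 CPM in the DR-labelled library and at 0.287 and 4.42 CPM in the WT-labelled library.

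**Figure D5:**
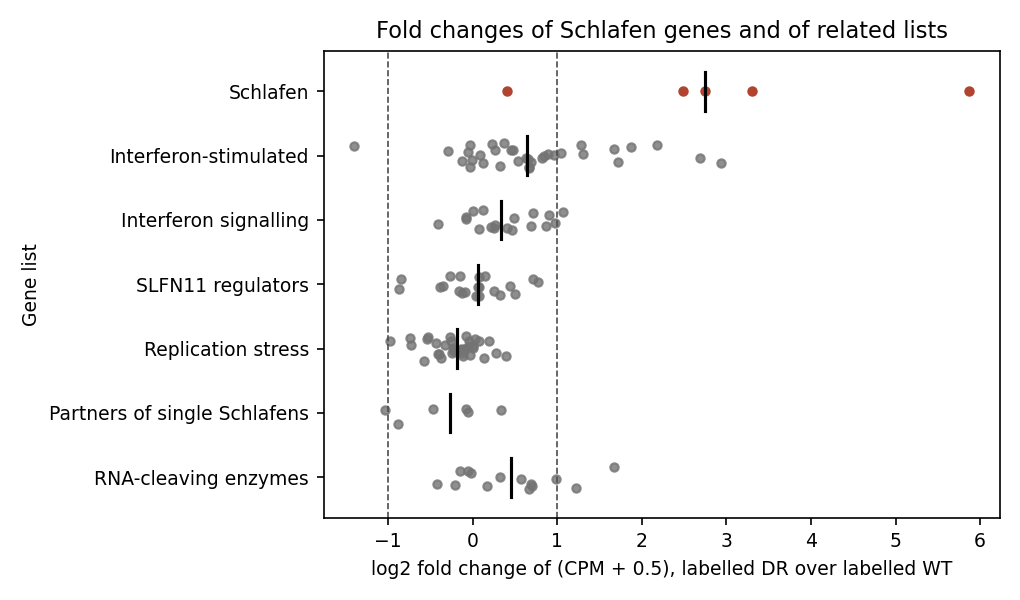
Each point is the log2 fold change of (CPM + 0.5), DR-labelled over WT-labelled library, of 1 gene with at least 10 reads, by list, with the median of each list as a black line and dashed lines at -1 and 1. Points are spread vertically for legibility, and the regulator and replication stress lists lie wholly between the dashed lines, while 4 of 5 Schlafen points lie above 2.4.

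Among all genes tested, those whose pair of levels lay nearest that of SLFN11, by Euclidean distance of log2 (CPM + 0.5) over the 2 libraries, were SASH3 (distance 0.17), PDLIM3 (0.56), NPNT (0.68), DDIT4L (0.68) and SPARC (0.75). SASH3 had 1849 and 4 reads, PDLIM3 1468 and 1, NPNT 2951 and 13, DDIT4L 1857 and 18 and SPARC 1301 and 0. In each, as in SLFN11, 1301 to 2951 reads with the DR label stood against 18 or fewer with the WT label. This likeness is set by the search, which used the same 2 levels, so nothing is read from it. No paralog of SLFN11 was among these 5 genes, as the fold changes above already imply.

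The annotation in the deposited table gives all 6 members the Gene Ontology function ATP binding, which 1461 genes hold. Endoribonuclease activity is given to SLFN14 alone of the members, among 12 genes in all, and tRNA binding to SLFN11 alone, among 48. SLFN11 is also annotated with defense response to virus and with negative regulation of the G1/S transition of the mitotic cell cycle.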

How the data were processed

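RNA from 1 library labelled DR and 1 labelled WT was sequenced by the authors, who deposited estimated counts per gene, with fractions and without scaling for library size, and a gene length. The submitters' processing notes name Bowtie 0.12.2 and hg19, while the counting tool, the annotation and the strand setting are not given in the sources used here. The deposited log2 ratio, p-value and q-value are the authors' own comparison and were not used.

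Estimated counts were rounded to whole numbers and scaled by TMM (edgeR 4.0.16, R 4.3.3, factors 1.01 and 0.988). A gene needed 10 or more reads in all, which left out 2057. Fold changes used log2 (CPM + 0.5), with a threshold of 1. With 1 library per group no test was run, and intervals are exact 95% intervals of read counting (SciPy 1.17.1, Python 3.11.15, NumPy 2.4.6, pandas 2.3.3). Limits for a count of 0 are the level of 3 reads. The code was checked on simulated counts. RefSeq gene IDs matched 17944 of the 18267 genes with counts, and 50-base stretches came from GENCODE 29. Alternatives were DESeq2 1.42.0 size factors, library totals, pseudocounts of 0.1 and 5 CPM, no filter or 50 reads, a log2 threshold of 2, unrounded counts, summed relatives and levels not divided by length.

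The members, gene lists and thresholds were chosen with earlier results of these data known. Named were all members, SLFNL1, the 8 nearest genes on each side, the 5 genes most like SLFN11, PDE3A, PDE3B, FLI1, ETS1, EZH2, IRF9 and JAK1, and from each list the largest 5 past the fold per direction whose mean CPM was 1 or more. Some genes under this rule are not reported here. RPA1, RPA3, MCM7, CDT1, CHEK1, ATR, LOC105371933, SOX10, MITF and the promoter motifs were chosen after their values or letters were seen.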

Additional observations from a re-analysis of the deposited data

How the results depend on the processing

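With 1 library per group no replicate could be left out, and no spread between replicates is known. The number of Schlafen genes past the fold, 4 higher and 0 lower, was the same with DESeq2's size factors, library totals, both other pseudocounts, no filter, at least 50 reads and a log2 threshold of 2, and the order of members within each library was the same without division by length. The log2 fold changes of the members stayed within their counting intervals with DESeq2's size factors, library totals and unrounded counts. A pseudocount of 5 CPM gave 1.89 for SLFN5, 3.03 for SLFN11, 1.21 for SLFN12 and 2.43 for SLFN13, since it shrinks low levels toward each other, and 0.1 CPM gave 7.26 for SLFN11 and 4.25 for SLFN12. Summed reads gave 3.19 for SLFN11 and SLFN13 and 1.93 for SLFN12 and SLFN12L. Interferon signalling genes higher past the fold went from 1 to 2 with library totals, 3 with 0.1 CPM and 0 with 5 CPM or a threshold of 2. With a threshold of 2, interferon-stimulated genes went from 9 to 3 higher and from 1 to 0 lower. Genes tied to the cutting of RNA went from 2 to 0 higher and Schlafen partners from 1 to 0 lower. With 5 CPM the last 3 of these counts were 0, 1 and 0. Over all genes, 5 CPM gave 423 higher and 333 lower, against 1211 and 674, and a threshold of 2 gave 339 and 189. Depth limits SLFN11, SLFN12 and SLFN14 in the library labelled WT, with 5, 10 and 0 reads.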

Other observations

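Other genes tied to the cutting of RNA in stress or defence, not all of them enzymes that cut it, were looked at beside the Schlafens. Of 14 such genes, 14 had at least 10 reads, and 2 were higher (14.3%, against 7.47% of all genes tested) and 0 lower (against 4.16%) past the fold in the library labelled DR, with a median log2 fold change of 0.45 against 0.01. ISG20, an interferon-induced exonuclease, had 44.1 and 13.5 CPM in the libraries labelled DR and WT (log2 fold change 1.67, interval 1.53 to 1.81), and ZC3H12C, of the regnase family of RNA-cleaving proteins, had 8.64 and 3.41 CPM (1.22, interval 0.96 to 1.49). SAMD9 and SAMD9L, tRNA-directed antiviral factors that are near relatives of each other, had 93.4 and 57.7 CPM (0.69) and 92.8 and 58.5 CPM (0.66). SAMD9, SAMD9L and ISG20 also stand in the list of interferon-stimulated genes. SAMD9 and SAMD9L were named after their values were seen.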
